A study of Mus musculus with 12 samples.

Results

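lncMGC knockout and wild-type mouse mesangial cells (MMC) were compared after 24 h of TGF-β at 10 ng/ml, with 3 RNA-seq libraries labelled KO-TGF and 3 labelled WT-TGF out of the 12 libraries of the series. The other 6 libraries, KO-SD and WT-SD, are serum-depleted (SD) cultures of the same genotypes without TGF-β. The MMC are primary cultures grown from pooled, sieved glomeruli in medium with serum. The wild type (WT) is C57BL/6, and the knockout (KO) is line KO5, made by injecting Cas9 and a pair of guide RNAs around the lncMGC transcription start into C57BL/6J embryos, crossing the founders with WT C57BL/6 mice and intercrossing the heterozygotes. KO is thus a single edited line, and it was not given how many mice or cultures stand behind the 3 libraries of a group, so that p-values measure only the spread between these libraries. In bulk RNA, fewer cells of a type and less RNA per cell cannot be told apart.

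Mesangial cells are the contractile, pericyte-like cells that hold the capillary loops of the glomerulus. TGF-β binds a receptor pair of serine/threonine kinases, which phosphorylate SMAD2 and SMAD3; with SMAD4 these enter the nucleus and raise matrix genes and contractile genes, and in diabetic kidney disease mesangial matrix accumulates. lncMGC is the long non-coding host transcript of a large microRNA cluster in the imprinted Dlk1-Dio3 region, and its RNA was reported to bind the nucleosome remodeler SMARCA5. The comparison asks which genes differ between genotypes once TGF-β has acted.

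The KO-TGF and WT-TGF libraries held between 20649931 and 22827706 counts on genes. Levels are given in CPM, the count of a gene relative to the size of its library after scaling by TMM, and differences as log2 fold changes of KO-TGF against WT-TGF with the standard error (SE) of the edgeR fit; a gene was called at FDR <5%. The 10 genes with the most counts took 8.13% to 10.7% of a library, more in each KO-TGF library than in any WT-TGF library. lncMGC itself is not among the counted genes, and the counted transcript Mirg, which overlaps its 3′ part, had 3.45, 3.57 and 3.75 CPM in WT-TGF and 3.64, 4.65 and 4.52 CPM in KO-TGF. The counts thus hold no check of the edit, and the genotypes stand as labelled. Of the markers of mesangial cells and pericytes, Pdgfrb was abundant in both genotypes, with 384 ± 1.46 CPM in WT-TGF against 358 ± 4.77 CPM in KO-TGF (SD, n = 3), whereas Thy1 was at or under 3 counts in each of the 6 libraries. The podocyte gene Nphs1 and the endothelial genes Pecam1 and Cdh5 were also at or under 3 counts in each of the 6, but other genes on the marker lists of those cells were detected and differed. Of 14 podocyte markers tested 10 were lower in KO-TGF and 3 higher, and the summed level of the whole list was 2949 to 3024 CPM in WT-TGF and 2727 to 2745 CPM in KO-TGF. Of the endothelial markers 3 were tested and all 3 were lower (summed level 70.5 to 74.8 and 27.1 to 28.6 CPM), and of 12 tubular and parietal epithelial markers 9 were lower and 1 higher (1476 to 1549 and 1072 to 1099 CPM). Of 13 mesangial and pericyte markers 5 were higher and 6 lower. These marker counts stand beside 27.3% higher and 27.8% lower among all genes tested. The part of the cells these lists mark in the differences described here was not tested. The Y-linked gene Ddx3y was at 189 ± 10.7 CPM in WT-TGF against 190 ± 7.4 CPM in KO-TGF (SD, n = 3), so that cells with a Y chromosome contributed to both genotypes.

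The genotypes differed at 6344 of 11529 genes tested, which is 55%. Most of these differences were small: the median size among the called genes was 0.283 on the log2 scale. In KO-TGF 3143 genes were higher (27.3%) and 3201 were lower (27.8%), nearly even numbers. The counts of list members below stand against these shares, and list counts in SD against 30.9% higher and 25.2% lower there. Among the differences of more than 2-fold the balance moved to the lower side, with 158 genes higher (1.37%) and 540 lower (4.68%), 6.05% in all. Beyond 4-fold 29 genes were higher and 177 lower, and beyond 16-fold 2 were higher and 42 lower. With library sizes left unscaled, the median over all genes fell by 0.122 (log2) and 23.3% in place of 49.5% of the genes at FDR <5% were higher; at fold change >2 this share was 15.9% in place of 22.6%. The libraries of the genotypes did not overlap at 7086 genes (61.5% of those tested), which is the figure against which single genes without overlap stand.

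The genes lower by more than 2-fold were mostly genes of low and middle level. Between 1 and 5 CPM (mean over all libraries of the comparison) 17.1% of 1209 genes were lower and 3.47% higher, while at 100 CPM and above 1.19% of 2351 genes were lower and 1.19% higher. At the extreme, among all genes with a count, 38 had a mean of at least 1 CPM in WT-TGF and no KO-TGF library above 3 counts, and 7 had the reverse pattern. Among the 38 were Il1a, the cytokine interleukin-1α (at least 12.2-fold lower in KO-TGF), Gbp9, an interferon-induced GTPase (at least 21.4-fold lower), Asic3, an acid-sensing channel (at least 30.3-fold lower), and Adgre1, the macrophage antigen F4/80 (at least 24.6-fold lower). Among the 7 were Slit3, a secreted guidance ligand (at least 10.7-fold higher), Apob, the apolipoprotein of low-density lipoprotein (at least 6.81-fold higher), and the developmental transcription factors En1 (at least 12-fold higher) and Pax3 (at least 10.4-fold higher).

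**Figure D1:**
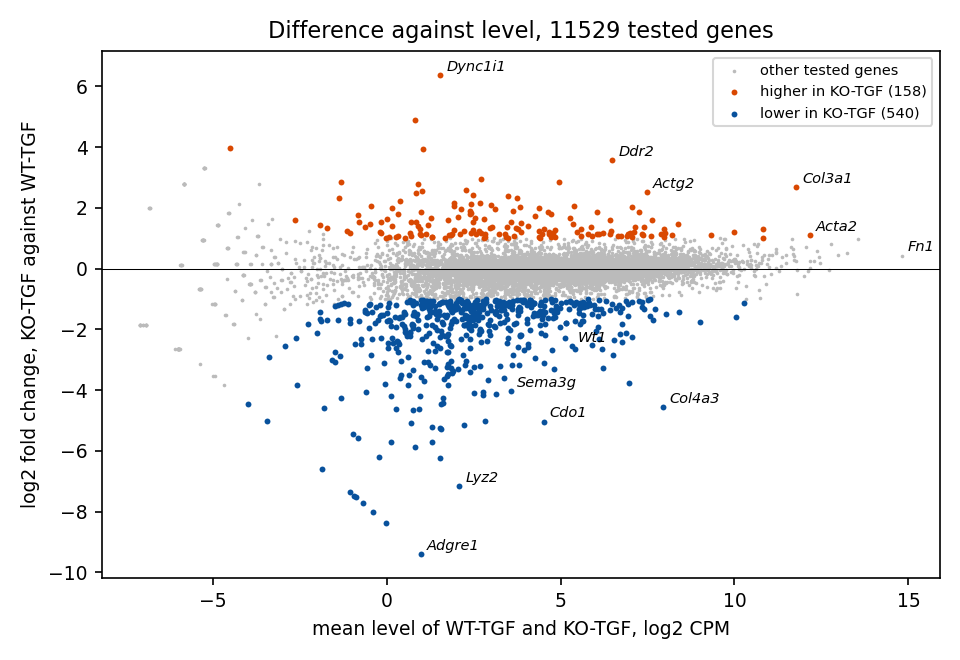
Log2 fold change of KO-TGF against WT-TGF (vertical axis) against the mean level of the 6 libraries in log2 CPM (horizontal axis), one point per gene for 11529 tested genes, with the 158 higher and 540 lower genes in colour. Lower genes crowd the left and middle of the plot, while at 100 CPM and above 28 genes are higher and 28 lower by more than 2-fold. Fitted values of genes without counts in one genotype depend on the prior count of the fit.

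Matrix genes moved in both directions, and the split ran within families. Type IV collagen, the network collagen of basement membranes, is made from 6 chains whose genes lie head to head in pairs. In GRCm38.p6 coordinates, Col4a3 (chr1:82586921-82722059) and Col4a4 (chr1:82448419-82587034) form one pair, Col4a1 (chr8:11198423-11312889) and Col4a2 (chr8:11312805-11449287) another, and Col4a5 and Col4a6 the third, on chromosome X. Col4a3 was at 465, 458 and 496 CPM in WT-TGF and at 19.6, 20.2 and 20.6 CPM in KO-TGF, which is 23.5-fold lower (log2 -4.56 ± 0.05 SE, edgeR FDR 7.1e-34). Its neighbour Col4a4 was at 224, 229 and 239 CPM in WT-TGF and at 15.4, 19.9 and 16.1 CPM in KO-TGF (log2 -3.75 ± 0.06). Both genes of the pair were thus low in every KO-TGF library, far from any WT-TGF value. On the X-linked pair, Col4a6 was 4.55-fold lower (38.7 ± 1.38 to 8.49 ± 0.563 CPM; SD, n = 3) and Col4a5 1.30-fold lower. The ubiquitous chains went the other way: Col4a1 had 4804, 4766 and 4833 CPM in WT-TGF and 6185, 6304 and 6237 CPM in KO-TGF (log2 0.38 ± 0.02), and Col4a2 was 1.19-fold higher. For Col4a1 and Col4a2 the difference between genotypes was also more positive under TGF-β than in SD (interaction of genotype and treatment, log2 0.31 and 0.28). Of the 6 chains 2 had a more positive and 3 a more negative difference, beside 8.67% and 16.6% of all genes.

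Among the fibrillar collagens, the rope-like collagens of the interstitium, 6 of 10 tested genes were higher and 3 lower, with a median log2 fold change of 0.68. Of 10 fibroblast markers tested 6 were higher and 2 lower (median 0.35), and their summed level was 10190 to 10710 CPM in WT-TGF and 23680 to 24380 CPM in KO-TGF. That list holds Col1a1 and Col3a1, which make up most of the summed level in both genotypes, so the sum largely repeats the collagen values. The part of fibroblasts in the collagen values was not tested. Col3a1, type III collagen, was at 901, 944 and 964 CPM in WT-TGF and at 6039, 5934 and 6018 CPM in KO-TGF (log2 2.68 ± 0.03, edgeR FDR 4.7e-33). The chains of type I collagen, which assemble as 2 copies of Col1a1 with 1 of Col1a2, were split. Col1a1 rose from 7972 ± 198 to 15790 ± 306 CPM while Col1a2 fell from 4558 ± 143 to 2549 ± 31.3 CPM (SD, n = 3), with no overlap in either. Of type V collagen, which nucleates fibrils, Col5a3 was 1.98-fold and Col5a1 1.75-fold higher. Type VI collagen, which forms beaded filaments around cells, was higher in the 3 chains tested: Col6a1 had 52.7, 51.4 and 53.1 CPM in WT-TGF and 205, 214 and 225 CPM in KO-TGF, Col6a2 was 7.14-fold and Col6a3 1.92-fold higher. Of the 11 tested collagens outside the type IV and fibrillar lists 5 were higher and 2 lower under TGF-β, with a median of -0.021. With library sizes left unscaled 4 were higher and 5 lower. In serum depletion 7 were higher and 2 lower, with a median of 1.435. Ddr2, a receptor kinase for fibrillar collagen, had 14.6, 12.7 and 14.8 CPM in WT-TGF and 165, 158 and 175 CPM in KO-TGF (log2 3.57 ± 0.05). The other discoidin receptor, Ddr1, was 1.5-fold lower.

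The adhesive and basement membrane proteins around these collagens showed the same mixture. Fibronectin, Fn1, a standard TGF-β target, had 24380, 24260 and 24640 CPM in WT-TGF and 32660, 32880 and 33050 CPM in KO-TGF, a difference of 1.34-fold that no library overlapped. The matricellular gene Postn was 2.24-fold, the proteoglycan genes Vcan 2.48-fold and Dcn 5.25-fold, and the laminin binder Nid1 2.13-fold higher. Lower were Svep1, a large adhesion protein (2.79-fold), Fmod, a small proteoglycan that binds fibrils (2.39-fold), Fras1, a basement membrane protein (2.43-fold), and Efemp1, a fibulin (8.45-fold). Ccn2, the classical early TGF-β target connective tissue growth factor, overlapped between genotypes, with 4552 ± 61.4 CPM in WT-TGF against 4620 ± 64 CPM in KO-TGF (SD, n = 3; log2 0.02 ± 0.02). Counted over lists, 12 of 26 fibronectin, matricellular and elastic fibre genes were higher and 10 lower (11 and 13 with library sizes left unscaled), 9 of 16 laminins, nidogens and partners higher and 6 lower, and 10 of 17 proteoglycans higher and 4 lower. In SD 19 of the 26 were higher and 6 lower. For 19 of the 26 the difference was more negative under TGF-β than in SD and for 2 more positive. For the 16 laminins and partners these counts were 7 and 4, and for the 17 proteoglycans 9 and 1. Among all genes the shares were 16.6% more negative and 8.67% more positive.

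Enzymes that build and cut the matrix were divided as well. Among collagen hydroxylases, lysyl oxidases and processing enzymes 13 of 19 were higher and 6 lower. The lysyl oxidase Loxl2 was 1.38-fold higher, whereas Plod2, the hydroxylase that modifies collagen telopeptides, fell from 1284 ± 12.1 to 831 ± 2.66 CPM (SD, n = 3). Of matrix proteases and inhibitors 13 of 30 were higher and 12 lower, or 11 and 18 with library sizes left unscaled. For 15 of the 30 the difference was more negative under TGF-β than in SD and for 5 more positive. Mmp2, gelatinase A, fell 1.95-fold, Mmp14, the membrane protease that activates it, rose 1.77-fold, and Timp3, a matrix-bound inhibitor, rose 1.65-fold. Of 15 integrins and discoidin receptors, which are counted as one list, 8 were lower and 4 higher. The collagen-binding chains Itga11 (2.70-fold), Itga2 (2.30-fold) and Itga1 (1.25-fold) and the laminin-binding chain Itga3 (1.89-fold) were lower, while the fibronectin receptor chain Itga5 was at 1211, 1157 and 1210 CPM in WT-TGF and at 2004, 1986 and 1993 CPM in KO-TGF.

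**Figure D2:**
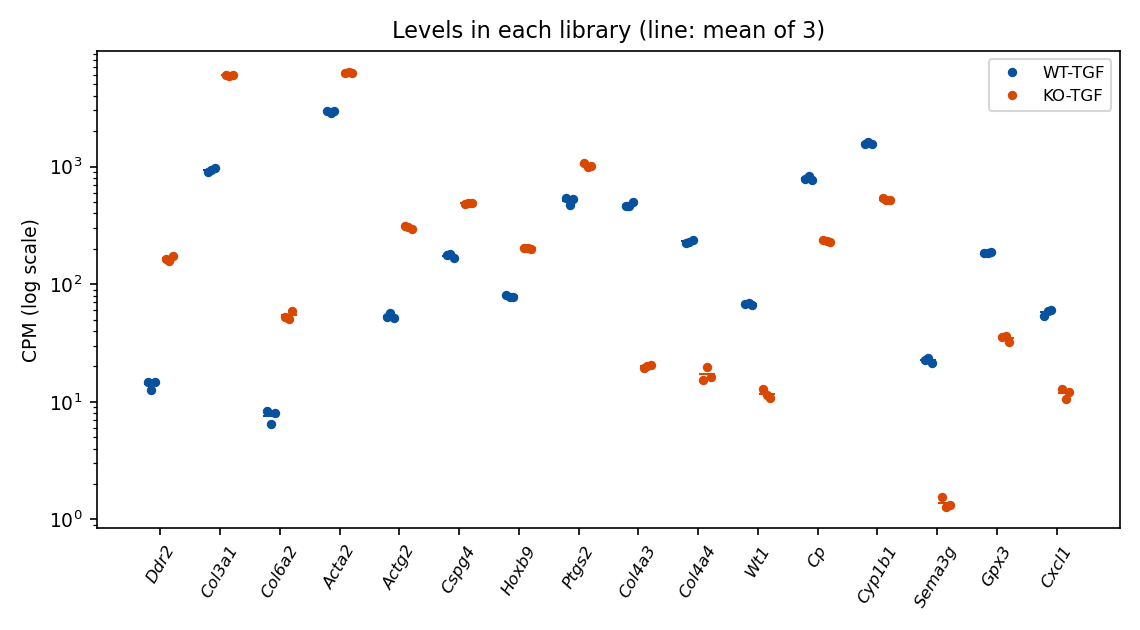
Level in CPM on a log axis of selected genes in each of the 3 WT-TGF and 3 KO-TGF libraries, with a line at the mean of 3. The libraries of one genotype sit close together for each gene, and the genotypes stand apart, by 23.5-fold for Col4a3.

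Most contractile and focal adhesion genes were higher in KO-TGF. In smooth muscle and activated mesangial cells the factor SRF, with its myocardin family partners, binds CArG boxes and raises actin, myosin and calponin genes. Of 27 contractile genes tested 21 were higher (77.8%, against 27.3% of all genes) and 4 lower, with a median log2 fold change of 0.45. Acta2, smooth muscle α-actin, was at 2955, 2857 and 2978 CPM in WT-TGF and at 6251, 6309 and 6304 CPM in KO-TGF (log2 1.10 ± 0.02, edgeR FDR 1.7e-26). Actg2, the γ isoform, rose 5.70-fold, the calponin gene Cnn1 2.26-fold, the tropomyosin gene Tpm2 2.17-fold and Tagln, encoding SM22α, 1.66-fold. Not every gene of the list followed. Mylk, the kinase that phosphorylates the myosin light chain, had 168, 179 and 167 CPM in WT-TGF and 37.8, 41.1 and 37.9 CPM in KO-TGF (log2 -2.14 ± 0.04), and the intermediate filament genes Des (22.1-fold) and Synm (3.14-fold) were also lower. Myocd, the cofactor myocardin, lay under the expression filter; in the fit of all genes with a count it was lower (log2 -2.28 ± 0.32, 1.75 ± 0.224 against 0.355 ± 0.0845 CPM, SD, n = 3), while Srf itself was 1.21-fold higher. Of 34 focal adhesion and stress fibre genes 26 were higher and 2 lower (median 0.35). Vcl, vinculin, was 1.76-fold and Flna, filamin A, 1.49-fold higher. Cspg4, the pericyte proteoglycan NG2, rose 2.79-fold, while of the 13 mesangial and pericyte markers tested 5 were higher and 6 lower.

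Among the contractile genes with a promoter in the RefSeq tables, a CArG box stood in 6 of 30 start windows (20%), against 1.35% of 11545 windows over the tested genes, where a window runs from 250 bases before to 50 after an annotated start and both strands were read. Srf and Myl9, the regulatory myosin light chain gene with 146 ± 6.9 CPM in WT-TGF against 360 ± 4.85 CPM in KO-TGF (SD, n = 3), are shown for the box. The stretch of Myl9 is chr2:156775273-156775342 on the plus strand and that of Srf chr17:46556205-46556274 on the minus strand (GRCm38.p6, RefSeq), with the CArG boxes in capitals:
Myl9: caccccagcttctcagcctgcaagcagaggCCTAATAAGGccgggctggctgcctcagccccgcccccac
Srf: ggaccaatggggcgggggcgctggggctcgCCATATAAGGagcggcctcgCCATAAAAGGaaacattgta
The Srf stretch holds the box in 2 copies. Over the 142 tested genes outside the list with a CArG box in a window, 43% were higher in KO-TGF and 19.7% lower, beside 27.3% and 27.8% of all genes.

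Of the TGF-β pathway, the RNA of the SMAD signal carriers differed little between genotypes. The signal carriers Smad2 (log2 0.02 ± 0.03) and Smad4 (0.03 ± 0.03) overlapped between genotypes, and Smad3 was 1.06-fold lower with 108, 107 and 110 CPM in WT-TGF and 104, 98.9 and 105 CPM in KO-TGF. The receptor Tgfbr2 was 1.44-fold higher and its partner Tgfbr1 1.10-fold lower. All ligands were higher, Tgfb1 1.17-fold, Tgfb2 1.30-fold and Tgfb3 from 294 ± 6.01 to 556 ± 7.62 CPM (SD, n = 3), as was Ltbp1, which stores the latent ligand in the matrix (1.88-fold). Smad7, a feedback inhibitor that SMADs induce, was 1.29-fold lower, and Skil, another, was 1.07-fold lower. The small differences of Smad3, Tgfbr1 and Skil were not called without some single libraries, and that of Smad3 also not under DESeq2. Over the list of 28 genes 10 were higher (35.7%) and 14 lower (50%), beside 27.3% and 27.8% of all genes. The median was -0.08, with members on both sides.

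In the BMP branch 9 of 19 genes were lower (47.4%) and 5 higher (26.3%), beside 27.8% and 27.3% of all genes. Bmp4 was at 98.5, 99.5 and 105 CPM in WT-TGF and at 34.1, 34.5 and 33.9 CPM in KO-TGF (log2 -1.56 ± 0.04). Id2 and Id3, transcriptional repressors that BMP signalling induces, were 3.33-fold and 1.24-fold lower. Fst, the activin antagonist follistatin, was 1.88-fold lower, and Gdf15, a divergent TGF-β family member released under stress, fell from 6.13 ± 0.82 to 1.05 ± 0.301 CPM (SD, n = 3).

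Genes of cholesterol and fatty acid synthesis were higher in KO-TGF and nearly even in SD. These genes are driven by the membrane-bound factors SREBP2 and SREBP1, which are released when sterols are low. Under TGF-β 30 of 33 tested genes were higher in KO (90.9%) and none was lower, with Ebp, Me1 and Pmvk not called. In SD 12 were higher and 4 lower, and the median log2 fold change was 0.08 there against 0.66 under TGF-β. The interaction was tested for each gene: 29 of the 33 had a more positive difference under TGF-β than in SD and none a more negative one, beside 8.67% and 16.6% of all genes. With library sizes left unscaled, 29 of the 33 were higher and 26 had a more positive difference.

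The values of single members follow the pathway. Hmgcs1, which makes HMG-CoA, had 208, 187 and 212 CPM in WT-TGF and 358, 347 and 357 CPM in KO-TGF, against means of 110 (WT-SD) and 116 CPM (KO-SD; interaction log2 0.74, edgeR FDR 1e-11). Sqle, the squalene epoxidase, rose 2.05-fold. Scd1, the stearoyl-CoA desaturase, had 98.0 ± 6.97 CPM in WT-TGF against 195 ± 7.54 CPM in KO-TGF, and 54.6 and 52.9 CPM on average in WT-SD and KO-SD (interaction log2 1.04). Srebf2, the gene of SREBP2, was 1.63-fold higher under TGF-β and Insig1, its sterol-controlled retention partner, 1.80-fold. Fasn, the fatty acid synthase, was 1.23-fold higher.

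**Figure D3:**
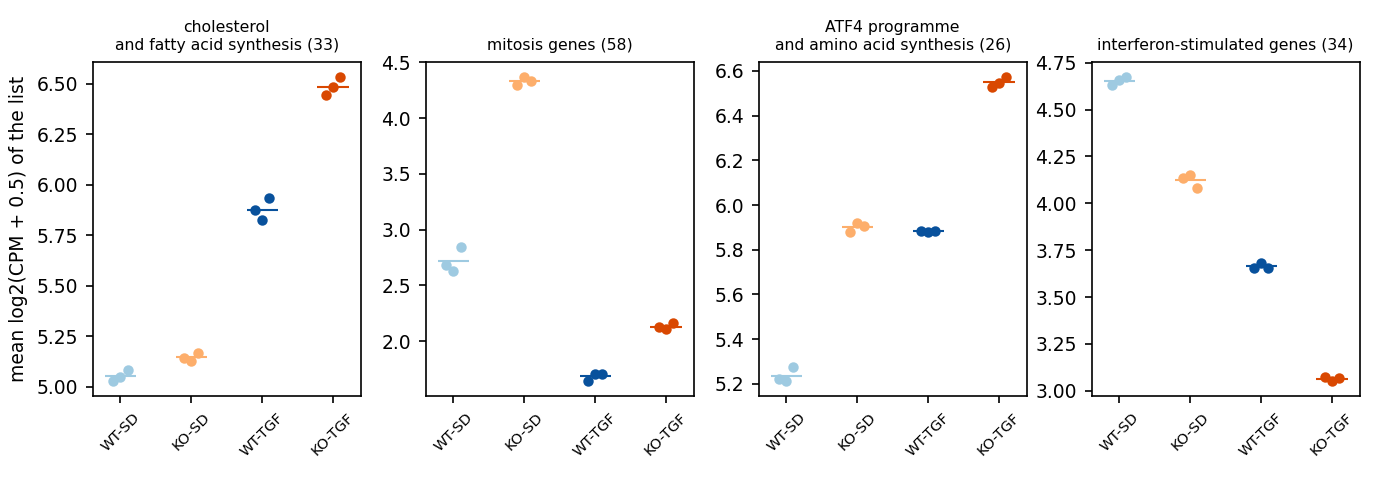
Mean log2(CPM + 0.5) over the tested genes of 4 lists, one point per library and a line at the mean of the 3 libraries of each group; each panel has its own axis. Cholesterol and fatty acid genes stand at 5.05 and 5.15 in WT-SD and KO-SD and at 5.88 and 6.49 in WT-TGF and KO-TGF, and mitosis genes at 2.72, 4.33, 1.69 and 2.13 in the same order.

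The sterol regulatory element TCACNCCAC, where N is any base, stood in 1 of 28 windows of these genes (3.57%) against 1.13% of all windows, so these letters were rare in this window of the list. The one match lies upstream of Hmgcs1, at chr13:119690184-119690252 on the plus strand (GRCm38.p6, RefSeq), and is printed in capitals:
Hmgcs1: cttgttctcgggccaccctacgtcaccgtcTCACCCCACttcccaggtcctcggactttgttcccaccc

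Genes of amino acid supply were higher in KO-TGF. ATF4 is the transcription factor of the integrated stress response; it is translated when eIF2α is phosphorylated and raises genes for amino acid synthesis, amino acid import and tRNA charging. Of 26 genes of its programme 24 were higher (92.3%) and 2 lower, the median being 0.71. Trib3, a pseudokinase induced by ATF4 and CHOP, was at 19.9, 21.9 and 23.8 CPM in WT-TGF and at 57.3, 62.1 and 62.1 CPM in KO-TGF (log2 1.47 ± 0.06). Asns, asparagine synthetase, had 170, 166 and 165 CPM in WT-TGF and 294, 295 and 299 CPM in KO-TGF. The cystine importer Slc7a11 rose 2.33-fold, Chac1, which degrades glutathione, 2.23-fold, the serine synthesis genes Psat1 1.65-fold and Phgdh 1.66-fold, the mitochondrial folate enzyme Mthfd2 1.59-fold, and Atf4 itself 1.31-fold. The lower genes were Cebpb, a partner factor (1.38-fold), and Nupr1, whose libraries overlapped although it passed the test. The same list had a median of 0.70 in SD. Its interactions went both ways, with 6 genes more positive under TGF-β and 10 more negative, beside 8.67% and 16.6% of all genes.

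The C/EBP-ATF response element TGATGNAA stood in 9 of 30 windows of the list (30%) and in 2.16% of all windows. Shown in capitals, on whichever strand it reads, is the element upstream of Chac1 (chr2:119351019-119351086, plus strand), Slc7a11 (chr3:50443642-50443709, minus strand) and Asns (chr6:7693210-7693262, minus strand), all GRCm38.p6 from RefSeq and all genes that rose:
Chac1: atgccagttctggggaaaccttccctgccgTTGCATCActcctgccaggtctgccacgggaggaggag
Slc7a11: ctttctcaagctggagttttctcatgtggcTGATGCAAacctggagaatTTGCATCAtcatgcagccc
Asns: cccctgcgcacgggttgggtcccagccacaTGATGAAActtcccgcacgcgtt
Slc7a11 holds the element in 2 copies, one on each strand. Nupr1, among the lower genes of the list, also holds the element upstream of its start. Of 226 tested genes outside the list with this element 27.9% were higher and 29.6% lower, close to all genes.

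Other genes of growth and secretion leaned the same way by smaller amounts. Of 64 cytosolic ribosomal protein genes tested 46 were higher and none lower, the median being 0.29; many have near-identical pseudogenes, so their single values are uncertain. Of 30 endoplasmic reticulum chaperones and secretion genes 22 were higher and 2 lower (median 0.21): the chaperone Hspa5, BiP, was 1.2-fold and the disulfide isomerase P4hb 1.46-fold higher. Glycolysis and lactate genes were higher in 18 of 26 cases and lower in 4, among them Pkm, pyruvate kinase, with 403, 396 and 420 CPM in WT-TGF and 580, 600 and 609 CPM in KO-TGF. Subunits of the respiratory chain encoded in the nucleus were higher in 32 of 72 cases and lower in 2, with a median of 0.09; with library sizes left unscaled 7 were higher and 14 lower, so no direction is given for them.

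**Figure D4:**
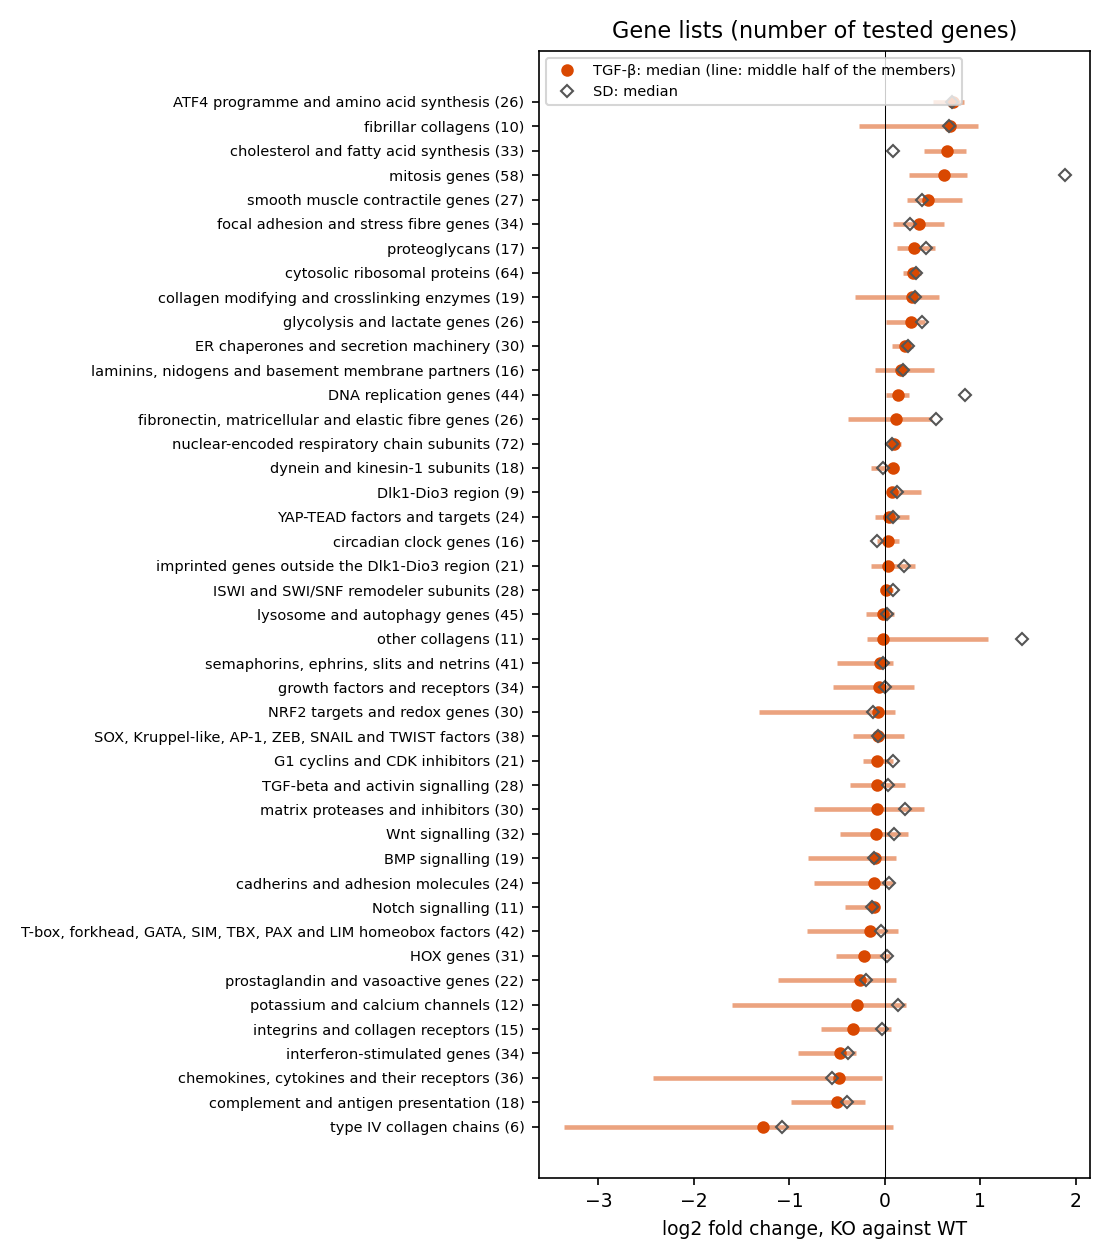
Median log2 fold change of KO-TGF against WT-TGF for each gene list other than the cell type markers and lists of under 6 tested genes (filled circles, with a line from the lower to the upper quartile of the members) beside the median of KO-SD against WT-SD (open diamonds); the number of tested genes is in brackets. Amino acid, fibrillar collagen and cholesterol genes lie at the top, and type IV collagen and complement genes at the bottom. The circles lie far from the diamonds for the other collagens, mitosis, DNA replication and cholesterol lists.

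Interferon-stimulated genes were lower in KO-TGF. Interferons act through a complex of transcription factors that binds the interferon-stimulated response element and raises antiviral GTPases, IFIT proteins and antigen presentation. Of 34 tested genes of this kind 28 were lower (82.4%, against 27.8% of all genes) and none was higher, with a median of -0.47; in SD 27 were lower and none higher. Irgm1, an immunity GTPase, was at 436, 434 and 417 CPM in WT-TGF and at 319, 314 and 305 CPM in KO-TGF (log2 -0.46 ± 0.03). Gbp2, a guanylate-binding protein gene, had 16, 16.9 and 15.2 CPM in WT-TGF and 9.16, 8.93 and 8.78 CPM in KO-TGF. Ifit3 was 3.2-fold and the factor Irf7 1.91-fold lower. Isg15, a ubiquitin-like modifier, overlapped between genotypes with 1.46 ± 0.12 and 1.31 ± 0.21 CPM (SD, n = 3).

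The element, GAAA NN GAAA with N any base, stood in 16 of 35 windows of the list (45.7%) against 2.8% of all windows. It is shown in capitals, on whichever strand it reads, for Gbp2 (chr3:142620574-142620643, plus strand), Ifit1 (chr19:34640755-34640824, plus strand) and Irgm1 (chr11:48871421-48871480, minus strand; all GRCm38.p6, RefSeq), which were 1.79-fold, 1.99-fold and 1.37-fold lower:
Gbp2: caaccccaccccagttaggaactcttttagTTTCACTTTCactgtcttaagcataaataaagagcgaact
Ifit1: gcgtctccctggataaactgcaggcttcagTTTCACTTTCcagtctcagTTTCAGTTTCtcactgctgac
Irgm1: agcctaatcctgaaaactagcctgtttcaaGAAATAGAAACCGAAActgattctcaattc
The Ifit1 and Irgm1 stretches each hold 2 matches. Isg15, which overlapped between genotypes, holds 3 matches before its start and is not shown. Outside the list 296 tested genes had the element in a window, and 26% of them were higher and 28.7% lower.

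Antigen presentation, complement and chemokine genes were lower too. The MHC class I heavy chains H2-K1 (2.05-fold), H2-D1 (1.82-fold) and H2-Q4 (10.0-fold) and the peptide transporter genes Tap1 (1.92-fold) and Tap2 (2.64-fold) were all lower; the MHC genes are near-copies of each other, which makes their single values uncertain. Of 18 complement and antigen presentation genes 13 were lower and 2 higher. C3, the central complement component, was at 506, 544 and 520 CPM in WT-TGF and at 384, 377 and 387 CPM in KO-TGF. Of 36 chemokines, cytokines and receptors 24 were lower and 4 higher, with a median of -0.48, or -0.41 with the 8 genes at or under 3 counts in every library of one genotype set at their bound. Cxcl1, a neutrophil chemokine, had 53.6, 59.2 and 60.9 CPM in WT-TGF and 12.8, 10.6 and 12.1 CPM in KO-TGF, and the monocyte chemokine Ccl2 was 1.63-fold lower. Il6 and Il33 went up, Il6 from 4.23 ± 0.652 to 8.21 ± 0.222 CPM and Il33 from 0.486 ± 0.0114 to 1.53 ± 0.138 CPM (SD, n = 3).

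Markers of macrophages and leukocytes moved with these genes. Of 30 markers 8 were tested, of which 7 were lower in KO-TGF and none higher, beside 27.8% and 27.3% of all genes. The median was -3.40, or -3.02 with 4 genes at their bound. A gene was tested where any library passed the RPKM limit. Of the 30 markers 8 reached a mean of 1 CPM in WT-TGF and 1 did in KO-TGF. Markers near 0 in KO could thus enter only through WT libraries, so the filter favoured lower genes in this split. The summed level of the whole list was between 32.9 and 39.3 CPM in the WT-TGF libraries and between 3.96 and 4.73 CPM in the KO-TGF libraries. The defining markers Adgre1, with 2.84, 5.48 and 3.56 CPM in WT-TGF, and Ptprc, the leukocyte antigen CD45, with 0.946, 0.758 and 0.445 CPM, were at 0 and at or under 3 counts in the KO-TGF libraries. Il1a, Il1b and the NADPH oxidase gene Cybb, which macrophages express strongly, likewise had no KO-TGF library above 3 counts. The part of such cells in the lower interferon, antigen presentation and chemokine genes was not tested.

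Prostaglandin and vasoactive genes set the mesangial cell's tone, and 13 of 22 were lower and 6 higher. Ptgs2, the inducible cyclooxygenase, rose: it had 541, 470 and 528 CPM in WT-TGF and 1066, 1001 and 1003 CPM in KO-TGF (log2 1 ± 0.04). The constitutive Ptgs1 was 2.47-fold and the prostacyclin synthase gene Ptgis 5.89-fold lower, as was Ptger4, a receptor of prostaglandin E (2.05-fold). Nos2, the inducible nitric oxide synthase, fell from 4.98 ± 0.787 to 0.813 ± 0.352 CPM (SD, n = 3). The endothelin system was divided, with the ligand gene Edn1 1.46-fold higher and the receptor gene Ednra 2.50-fold lower. Of the potassium channels that oppose contraction, Kcna5 was 12.4-fold lower while Kcnmb1, the smooth muscle subunit of the large-conductance channel, was 3.75-fold higher.

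Of 30 redox genes and targets of the oxidant sensor NRF2 12 were lower, 7 higher and 11 not called, with a median of -0.07. Among the lower members Gpx3, the secreted glutathione peroxidase, had 183, 184 and 187 CPM in WT-TGF and 35.4, 36.2 and 32.2 CPM in KO-TGF (log2 -2.42 ± 0.04), Gpx7 was 9-fold, Gsta4 10.3-fold, Mgst1 5.96-fold and Gstm1 2.81-fold lower, and the extracellular superoxide dismutase gene Sod3 3.43-fold. Hmox1, the heme oxygenase, was 1.33-fold higher, and Gclm (26.4 ± 1.04 and 24.7 ± 1.2 CPM; SD, n = 3) and Nqo1 overlapped between genotypes. Nox4, the oxidase that TGF-β induces in mesangial cells, was at 230, 209 and 219 CPM in WT-TGF and at 128, 129 and 124 CPM in KO-TGF, and Ucp2, a mitochondrial carrier, was 2.94-fold lower.

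Guidance molecules, first known from growing axons, also pattern vessels and glomeruli. Of 41 semaphorins, ephrins, slits, netrins and receptors 18 were lower (43.9%) and 12 higher (29.3%), beside 27.8% and 27.3% of all genes. Class 3 semaphorins, the secreted repellents, went apart: Sema3g had 22.6, 23.5 and 21.4 CPM in WT-TGF and 1.55, 1.28 and 1.31 CPM in KO-TGF (log2 -4.02 ± 0.12), Sema3d 103, 98.8 and 107 CPM and 20.4, 16.4 and 16.8 CPM, while Sema3a was 1.56-fold higher. The difference of Sema3g and Sema3d was more negative under TGF-β than in SD (interaction log2 -2.81 and -1.73). Their receptor component Nrp2 was at 63.8, 66.3 and 68.6 CPM in WT-TGF and at 241, 246 and 237 CPM in KO-TGF, and the netrin receptor gene Unc5c was 4.15-fold higher. Ephb6, an ephrin receptor without kinase activity, was 6.01-fold lower.

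Wnt, Notch and growth factor genes were mixed. Among Wnt genes 16 of 32 were lower and 10 higher. The ligand gene Wnt10b rose from 3.05 ± 0.477 to 13.1 ± 0.516 CPM and Lef1, a nuclear effector, from 19 ± 1.01 to 38.8 ± 0.713 CPM (SD, n = 3). Wnt16 (25.2-fold), the secreted modulator Sfrp2 (24.8-fold), the agonist Rspo3 (2.92-fold) and Nkd2, which binds Dishevelled (3.66-fold), were lower. Of 11 Notch genes none was higher and 6 were lower; the ligand gene Jag1 had 1317, 1255 and 1244 CPM in WT-TGF and 938, 953 and 948 CPM in KO-TGF. Vegfa was 1.61-fold higher while its receptor Flt1 was 3.08-fold lower. The platelet-derived growth factors Pdgfd, with 13.8, 12.3 and 12.3 CPM against 2.68, 3 and 2.73 CPM, and Pdgfb, 1.89-fold lower, both fell. Fgf18 was 3.49-fold and the IGF-binding protein gene Igfbp5 2.74-fold lower.

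HOX genes lie in 4 clusters and mark position along the body axis, low paralog numbers towards the head. Of 31 genes on the list, the antisense transcript Hotair included, 6 were higher and 17 lower, with a median of -0.22; 5 were higher and none lower by more than 2-fold. Split by paralog number, a split chosen after the values were seen, none of 21 genes of groups 1 to 8 was higher and 15 were lower (median -0.44, and -0.19 in SD), whereas 5 of 9 genes of groups 9 to 13 were higher and 2 lower (median 0.46, and 0.38 in SD). Within the Hoxc cluster on chromosome 15, Hoxc8 had 52.3, 50.8 and 48.5 CPM in WT-TGF and 27.4, 26.6 and 26.3 CPM in KO-TGF, while Hoxc13 rose from 2.37 ± 0.591 to 8.42 ± 1.04 CPM and Hotair from 0.532 ± 0.175 to 3.05 ± 0.422 CPM (SD, n = 3). Hoxb9 was 2.58-fold and Hoxd10 2.55-fold higher. Of 42 T-box, forkhead, GATA, PAX and LIM factors and their like 11 were higher and 20 lower, with a median of -0.15. Wt1, a factor of the kidney stroma and podocyte lineage, was at 68.1, 69.6 and 66.9 CPM in WT-TGF and at 12.9, 11.4 and 10.7 CPM in KO-TGF (log2 -2.55 ± 0.06). Foxd1, a factor of stromal progenitors, was 1.68-fold lower, Pax8 1.88-fold lower and Gata3 2.26-fold higher.

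Genes of the region around the deletion differed by small amounts at the median. Of 9 tested genes of the Dlk1-Dio3 region and its flanks on chromosome 12, 5 were higher and none lower, the median being 0.08. With library sizes left unscaled 3 were higher and 2 lower, with a median of -0.04. The non-coding transcript Rian was at 72.8, 76.7 and 79.1 CPM in WT-TGF and at 98.4, 94.3 and 105 CPM in KO-TGF, and Meg3 was 1.07-fold higher (log2 -0.03 with library sizes left unscaled). The study states that exons of Rian and Mirg are shared with lncMGC. By RT-qPCR it reported Meg3, Rian and Mirg as lower in KO5 MMC than in WT. After TMM scaling these counts do not show those transcripts as lower in KO-TGF. The flanking gene Wars, encoding the tryptophanyl-tRNA synthetase, was 1.51-fold higher. Dio3, the deiodinase gene at the end of the region, was the one member past 2-fold, at low levels of 0.236, 0.0446 and 0.0988 CPM in WT-TGF and 0.696, 0.695 and 0.578 CPM in KO-TGF (log2 2.33 ± 0.51, and 3.11 without WT-TGF replicate 1). On other chromosomes the imprinted genes Peg10 (3-fold higher) and H19 (2.19-fold lower, with 34.4, 18.8 and 15.1 CPM in WT-TGF and 11, 9.68 and 10.5 CPM in KO-TGF) differed. Smarca5 stood at close levels: it had 78.0, 72.1 and 75 CPM in WT-TGF and 79.7, 78.1 and 78.3 CPM in KO-TGF and was not called (log2 0.07 ± 0.04). Of 28 subunits of ISWI and SWI/SNF remodelers 5 were higher and 4 lower, or 3 and 15 with library sizes left unscaled, so no direction is given for them. Smarca2, an alternative SWI/SNF ATPase, was 2.32-fold lower.

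Mitosis genes were higher in KO-TGF, but by less than in SD. These genes are switched on together late in the cell cycle. Of 58 tested 37 were higher and 1 lower, with a median of 0.62 against 1.89 in SD. In SD 57 were higher, beside 30.9% of all genes. For 52 of the 58 the difference was more negative under TGF-β than in SD and for none more positive. Among all genes the shares were 16.6% more negative and 8.67% more positive. Mki67, the proliferation antigen Ki-67, was at 8.65, 10.3 and 8.89 CPM in WT-TGF and at 16.5, 16.5 and 17.7 CPM in KO-TGF, against 39.1 and 150 CPM on average in WT-SD and KO-SD (interaction log2 -1.08). Top2a, topoisomerase IIα, followed it, with 10.9 ± 1.19 and 21.1 ± 0.716 CPM under TGF-β (SD, n = 3; interaction log2 -1.15). Of 44 DNA replication genes 14 were higher (31.8%, beside 27.3% of all genes) and 3 lower under TGF-β. With library sizes left unscaled 6 were higher and 6 lower, so no direction is given for them. Of the 44 genes, 34 had a more negative difference than in SD and 2 a more positive one, beside 16.6% and 8.67% of all genes. The G1 cyclin gene Ccnd1 was 2.02-fold lower and the CDK inhibitor gene Cdkn1a 1.35-fold lower in KO-TGF.

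The cell cycle homology region TTTGAA stood in 36 of 55 windows of the mitosis list (65.5%) against 11.8% of all windows. Mki67 (chr7:135716460-135716525, minus strand) and Top2a (chr11:99024333-99024398, minus strand; GRCm38.p6, RefSeq) are shown with the letters in capitals:
Mki67: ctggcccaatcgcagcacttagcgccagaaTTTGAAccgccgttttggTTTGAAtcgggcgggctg
Top2a: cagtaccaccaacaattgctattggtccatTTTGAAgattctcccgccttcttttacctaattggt
Outside the list 1234 tested genes had these letters in a window, of which 25.9% were higher and 28.9% lower.

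Set beside the SD cultures, most of the genotype difference under TGF-β was also there without it. The contrasts share no library. In SD 56.1% of genes were called, 30.9% higher and 25.2% lower, and 6.44% with more than 2-fold, 3.19% higher and 3.24% lower. Of the 158 genes higher by more than 2-fold under TGF-β 120 (75.9%; 32.6% of the 368 such genes in SD) were past the same rule in SD, and of the 540 lower genes 306 (56.7%; 81.8% of 374 in SD). Across the 11529 genes the log2 fold changes of both conditions had a Pearson correlation of 0.746 and a Spearman correlation of 0.688, given as a description since genes are not independent replicates and since the 4 groups share one normalization. The interaction passed FDR <5% for 25.3% of genes in edgeR's quasi-likelihood test, and past 2-fold for 2.73%, with 0.338% more positive and 2.39% more negative under TGF-β. The share of the 158 and 540 genes with an interaction is not given, since the TGF-β contrast that chose them is part of it.

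Several single genes differed between the conditions by more than 2-fold. Fbxo32, the muscle ubiquitin ligase atrogin-1, had 95.6, 95.4 and 92.6 CPM in WT-TGF and 243, 243 and 244 CPM in KO-TGF, with 61.8 and 62.9 CPM on average in WT-SD and KO-SD (interaction log2 1.34, edgeR FDR 6.9e-20). Arc, an immediate early gene, was 3.91-fold lower under TGF-β (17.8 ± 1.21 against 4.56 ± 0.141 CPM; SD, n = 3) and higher in SD (log2 1). For 3 genes the difference was past 2-fold in opposite directions: Mmp9, gelatinase B, was higher under TGF-β (log2 2.41, with 1.66, 1.78 and 1.83 CPM against 8.84, 8.77 and 10.5 CPM) and lower in SD (-1.21), while Akr1c14, a steroid dehydrogenase gene (-1.18 and 1.14), and Srpx2, a secreted protein gene (-1.29 and 1.22), were lower under TGF-β and higher in SD. Col12a1, a fibril-associated collagen, was 1.14-fold lower under TGF-β and higher in SD (log2 1.44).

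**Figure D5:**
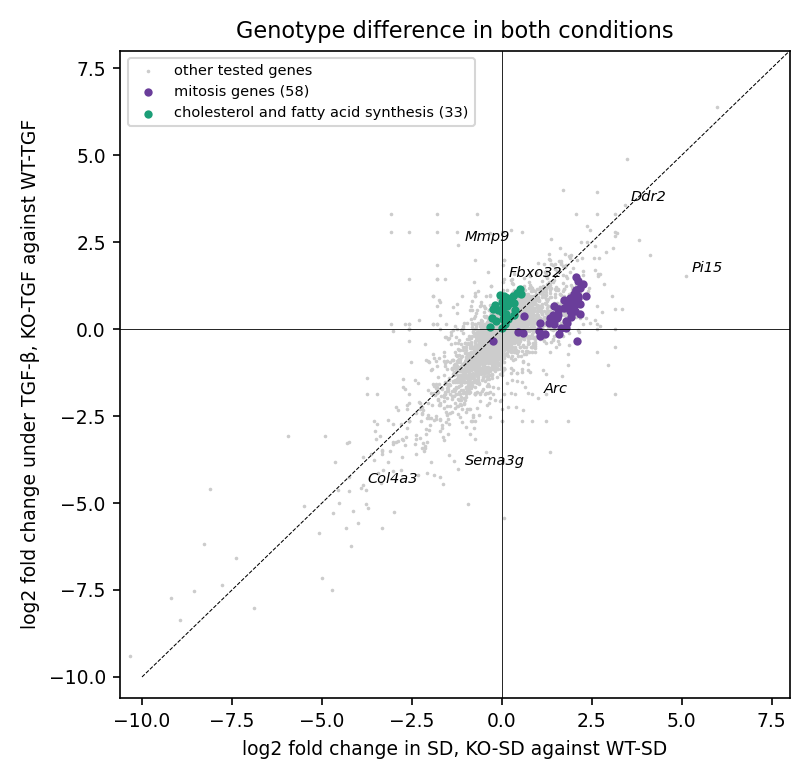
Log2 fold change of KO against WT under TGF-β (vertical axis) against that in SD (horizontal axis) for 11529 tested genes, with a dashed line where both are equal. The 33 cholesterol and fatty acid genes lie above the line near 0 on the horizontal axis, and the 58 mitosis genes lie below it at higher values in SD.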

How the data were processed

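The authors aligned the reads with TopHat (genome build mm10) and obtained gene counts with HTSeq, read by strand. The deposited values are raw counts per gene, without normalization or filter; 25230 genes were listed. Rows naming no gene stayed out of library sizes; reads outside genes were 10.3% to 12.5% of a library. As in the study's own filter, a gene was kept where RPKM exceeded 1 in any of the libraries (11529 genes), and these were tested with edgeR 4.0.16 (R 4.3.3) after TMM, by the quasi-likelihood test with Benjamini-Hochberg adjustment, in one fit of the 12 libraries with a mean per group. For named genes under the limit, values come from a second fit over the 18565 genes with any count. A fold against a group with no library above 3 counts is a lower bound, computed against 3 counts per library; such floors cover counting error only. Other folds come from the fitted log2 fold changes. Symbols were matched to RefSeq of GRCm38.p6 (24930 by symbol, 199 by an older symbol), and 9032 tested genes had a promoter window. The fit was tested on simulated data with known changes.

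The lists and the comparison were chosen with earlier results of these data known. Named genes were, by rule, those with the largest differences or the largest interactions, and marked members of each list. Akr1c14, Apob, Asic3, Col5a1, Col6a3, Ebp, En1, Flna, Gstm1, Hoxb9, Hoxd10, Il1b, Irgm1, Me1, Mgst1, Myocd, Pax3, Pkm, Pmvk, Ptger4, Rspo3, Srebf2, Srf and Srpx2 were chosen after their values were seen. Alternatives were other scalings, DESeq2 1.42.0, other filters, fewer groups, a replicate block and leaving out each library. Some genes meeting the rule are not reported.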

Additional observations from a re-analysis of the deposited data

Results flagged for a closer look

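For 25 named genes the difference between KO and WT itself differed between TGF-β and SD. The interaction was past FDR <5% in edgeR's quasi-likelihood test and of more than 2-fold. All values here are log2 interactions, and 4 were more positive and 21 more negative under TGF-β. Some genes were named for their interaction and others for the TGF-β difference, which is part of it. The counts of 25, 4 and 21 thus follow partly from that choice. The positive ones were Mmp9 (3.62), Fbxo32 (1.34), Pdgfb (1.13) and Scd1 (1.04). Of matrix genes, Col6a3 (-2.13), Fmod (-1.69), Col12a1 (-1.63) and Fras1 (-1.22) were negative, and Srpx2 (-2.51) as well. Of guidance and Wnt genes, Sema3g (-2.81), Sema3d (-1.73) and Rspo3 (-1.70) were negative. Enzymes and transporters of this kind were Akr1c14 (-2.32), Gsta4 (-1.22), Mgst1 (-1.08), Gstm1 (-1.02) and the potassium channel Kcna5 (-2.17). The remaining genes were Cybb (-2.36), whose KO-TGF libraries were all at or under 3 counts so that the value depends on the prior count, Arc (-2.97), Cxcl1 (-1.40), Ednra (-1.34), the imprinted H19 (-1.39) and Peg10 (-1.09), and the proliferation genes Top2a (-1.15) and Mki67 (-1.08).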

How the results depend on the processing

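At fold change >2, the 158 higher and 540 lower genes became 300 and 1172 without a filter, and the lower genes 828 where CPM had to exceed 1 in 3 or more libraries. At FDR <5%, the 3143 higher and 3201 lower genes became 1642 and 5408 with library sizes left unscaled. Interactions past 2-fold, 39 more positive and 276 more negative, became 68 and 428 without a filter. With library sizes left unscaled the log2 fold changes of Ccn2 (-0.10), Ddx3y (-0.12), Meg3 (-0.03), Smad2 (-0.11) and Smad4 (-0.09) changed sign. Leaving out each library in turn gave 155 to 169 higher and 530 to 555 lower genes at fold change >2, 2863 to 3219 and 2706 to 3045 at FDR <5%, and 35 to 46 more positive and 250 to 293 more negative interactions. Same-numbered libraries were not treated as pairs, and the labels do not say whether they are. Between WT-TGF and KO-TGF the correlations of their deviations were 0.0589, 0.000989 and 0.0649, against -0.0754 to 0.0143 for differently numbered libraries. A replicate block gave 157 and 540 genes at fold change >2, 3224 and 3278 at FDR <5%, and 38 and 276 interactions. Of 177 named genes tested, 9 changed sign or lost their call in at least 1 of 13 alternatives: besides those 5, Smad3, Skil, Nupr1 and Tgfbr1, whose small differences were not called without some single libraries, Smad3 and Nupr1 also not under DESeq2, DESeq2 size factors or no filter. Levels under 3 counts could not be told from 0 at this depth.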
